A study of Drosophila melanogaster with 9 samples.

Results

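The genes described here encode seminal fluid proteins of the male fly. They are the 48 genes whose symbol starts with Sfp and a digit, with Acp and a digit, or with Mst57D, out of 14865 genes listed in the raw count table. The rule left out the cuticle genes Acp1 and Acp65Aa and the sex peptide gene, which the annotation calls SP. The rule used names alone and no measured value, but earlier results of these data were known when the genes were chosen. All 48 passed the filter on low counts, and the least abundant of them still held 904 counts over all libraries. Poly(A) RNA of whole Drosophila melanogaster was sequenced 8 days after eclosion, from flies fed 8% yeast and 9% sugar. The 5 control libraries carry the genotype w1118 in the authors' sample sheet and the 4 E78A mutant libraries the genotype E7818.37. The study asked what changes in flies mutant for E78A, a nuclear receptor that Eip78C encodes. Neither the number of flies per library nor separate rearing of the libraries is stated, and the p-values therefore cover only the spread seen between these samples, which may be technical.

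Seminal fluid is made mostly by the paired accessory glands, with contributions from the ejaculatory duct and ejaculatory bulb. Its proteins travel to the female with the sperm, where they raise egg laying, help store sperm, form the mating plug and regulate proteolysis. Many are short secreted peptides, protease inhibitors, lectins or members of small tandem families. In RNA of whole flies, fewer gland cells and less RNA per gland cell cannot be told apart.

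Library totals ran from 16556267 to 19093675 counts, and 13274 genes were tested. The labels give no sex. The testis markers summed to 4273 CPM (counts scaled to a common library size) or more in every library, while the yolk and eggshell markers summed to 16.6 CPM or less. Of that second list, the eggshell genes Cp18 and Cp19 were near or at 0. For 4 libraries the genotype tag contradicts the title, and the authors' sample sheet disagreed with 0 titles, so titles were followed. Eip78C itself averaged 10.6 ± 2.86 CPM over 5 control libraries and 10.7 ± 1.45 CPM over 4 mutant libraries (SD), a log2 fold change of 0.00467 (SE 0.18, edgeR adjusted p = 0.993). Its counts cover the whole gene and do not check the labels if transcripts outside the altered part remain. Pairs of libraries within a genotype were farther apart than counting noise allows, with chi-square per degree of freedom between 17.3 and 42.9.

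The seminal fluid genes made up 0.926% to 1.54% of all counts in a library. Their summed level in controls 1 to 5 was 9436, 13739.8, 15348, 11828 and 12340.1 CPM, and in mutants 1 to 4 it was 15328, 13742, 11555 and 12878 CPM. The genotypes overlapped, since the lowest and the highest library were both controls. The means were 12538 ± 2208 CPM (SD, n = 5) and 13375 ± 1582 CPM (SD, n = 4), a log2 ratio of 0.0933, mutant over control, against a spread between libraries of 0.228 on the same scale. Without control 1 the log2 ratio of summed member CPM was 0.00715. Acp36DE alone gave 24.7% of the summed CPM.

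Per kilobase of exon, the order of levels was led by short peptide genes. Mst57Db, one of the tandem male-specific Mst57D genes whose transcripts are made in the accessory gland, stood first at 4970.1 CPM per kb over all libraries. It was followed by Acp95EF at 2615 and Mst57Da at 2368 CPM per kb. Next came Sfp87B at 2007, Acp54A1 at 1878, Sfp60F at 1273, Acp53Ea at 1183, Acp36DE at 1092, Acp53C14b at 1023 and Acp33A at 923 CPM per kb. These 10 genes gave 72.3% of the level per kb summed over all 48. The lowest was Sfp38D at 19.6 CPM per kb, and the median of all was 174 CPM per kb. Neighbours in this order did not separate beyond their spread at many places. In the controls, Mst57Da at 2263 ± 266 CPM per kb (SD, n = 5) lay within an SD of Acp95EF at 2719 ± 678. Likewise Acp36DE at 1110.3 ± 290.4 lay within an SD of Acp53Ea at 1157 ± 203. Mst57Db, at 4911 ± 919 CPM per kb in the controls, stood clear of Acp95EF and Mst57Da.

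**Figure D1:**
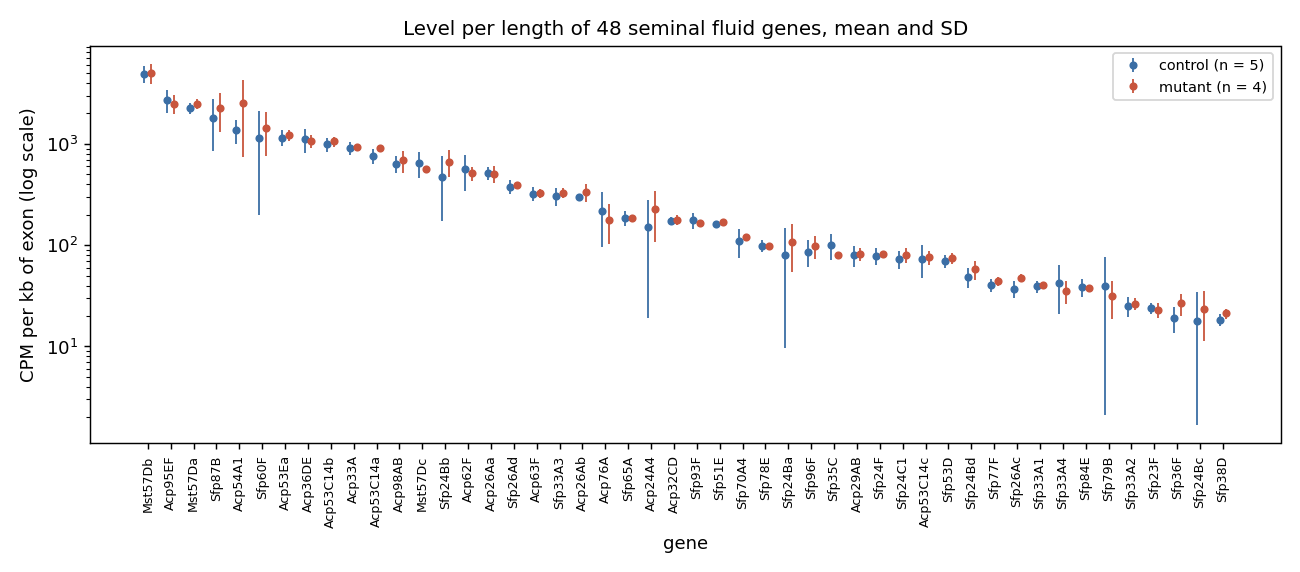
Level of each of the 48 seminal fluid genes in CPM per kb of exon (log axis), with the mean and SD of 5 control and 4 mutant libraries. Levels run from 4970.1 CPM per kb for Mst57Db to 19.6 CPM per kb for Sfp38D, and the error bars of the genotypes overlap for most genes.

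No member was called between the genotypes by edgeR's quasi-likelihood test (0 of 48 at a Benjamini-Hochberg adjusted p under 0.05, 0 higher and 0 lower). Over all tested genes, 1.63% were called, 0.708% as higher and 0.927% as lower in the mutants. At an unadjusted p under 0.05 there were 2 members, Acp54A1 and Sfp26Ac, against 15.1% of all genes. DESeq2 on the same counts also called 0 members, where 3.71% of all genes were called. The smallest adjusted p of a member in the authors' deposited table was 0.283, for Sfp26Ac. For 0 members were all mutant libraries above or all below the controls, a pattern found in 6.16% of tested genes.

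The log2 fold changes, mutant over control, ran from -0.33 for Sfp35C to 0.87 for Acp54A1. They were positive for 35 members and negative for 13, where 49.5% of all tested genes were positive. The median was 0.0664, against -0.00240 over all tested genes. Without control 1 the median log2 fold change of members was -0.00692. For 38 of the 48 the 95% interval of the fold change lay within 2-fold in either direction, a smaller share than the 88.9% of all tested genes. The 10 with wider intervals were Acp24A4, Acp54A1, Acp76A, Sfp24Ba, Sfp24Bb, Sfp24Bc, Sfp36F, Sfp60F, Sfp79B and Sfp87B, whose intervals reach past a 2-fold difference. The replicate numbers of the sample sheet pair 4 control with 4 mutant libraries. They leave out control 3, the highest library for 24 members, and keep control 1, the lowest for 34. Without control 3 alone, and with no pairing, the median log2 fold change of members was 0.154. In all 4 pairs the mutant was higher for 13 members and lower for 0, against 12.6% and 13.0% of tested genes. The 13 were Acp24A4, Acp29AB, Acp53C14a, Acp53C14b, Acp53C14c, Acp54A1, Mst57Da, Sfp24C1, Sfp26Ac, Sfp26Ad, Sfp33A3, Sfp38D and Sfp77F. With those pairs as a block, 1 member (Acp54A1) was called, beside 3.77% of all genes. At an unadjusted p under 0.05 the block gave 12 members, all with a positive log2 fold change, beside 17.6% of all genes.

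**Figure D2:**
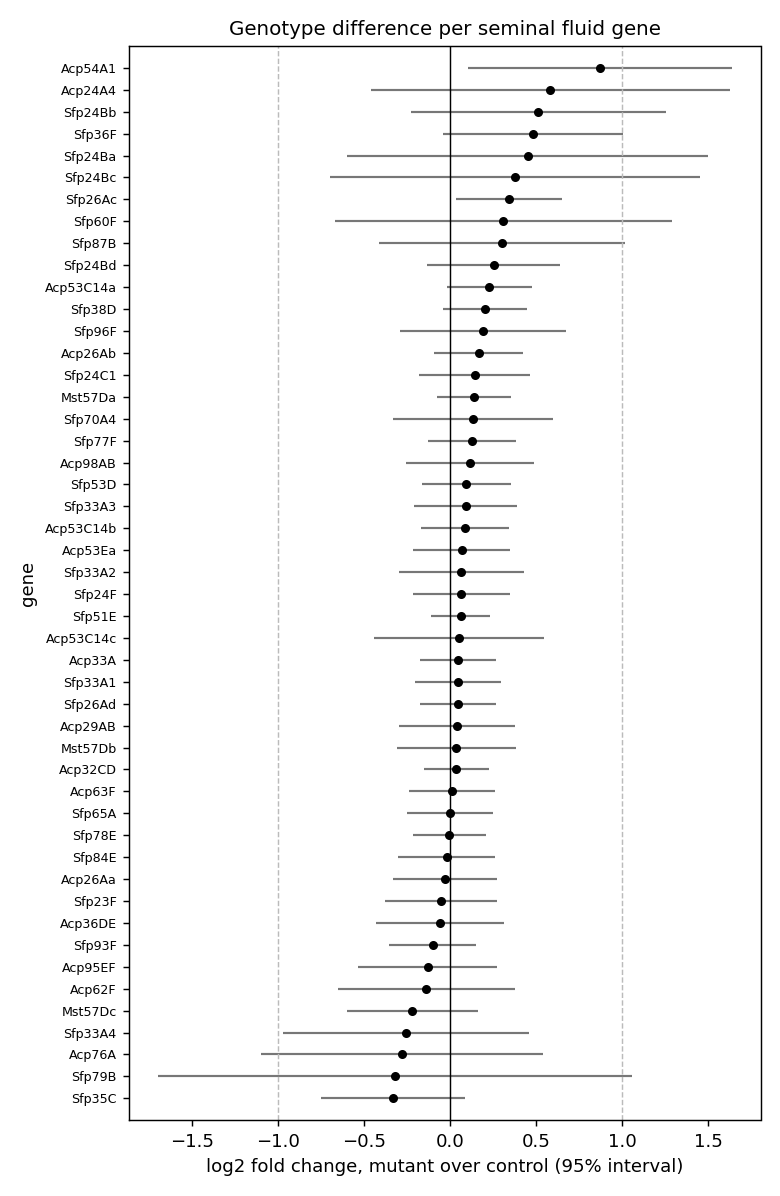
Log2 fold change of each seminal fluid gene, mutant over control (points), with its 95% interval from edgeR (lines). Dashed lines mark a 2-fold change either way. Points run from -0.33 for Sfp35C to 0.87 for Acp54A1, and most intervals include 0.

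Among proteins with known parts in egg laying and sperm storage, the groups lay close together. Acp36DE, a large glycoprotein needed for sperm to enter the storage organs, was at 2317, 2791, 4533, 3017 and 3569 CPM in controls 1 to 5. In mutants 1 to 4 it was at 3320.3, 2835, 2667 and 3677 CPM. Control 3 was the highest and control 1 the lowest library, with all mutants between them. The log2 fold change was -0.05 (SE 0.17, 95% interval -0.43 to 0.32, edgeR adjusted p = 0.912). Acp26Aa, known as ovulin and a stimulant of ovulation, had 494 ± 76.2 and 485 ± 89.7 CPM in controls and mutants (log2 fold change -0.03, 95% interval -0.33 to 0.27). Its neighbour Acp26Ab, which encodes a small secreted peptide, had 149.8 ± 12.5 and 168 ± 34.3 CPM (0.17, 95% interval -0.09 to 0.43). Acp29AB, a C-type lectin that helps retain sperm in storage, had 60.8 ± 13.7 and 62.5 ± 8.95 CPM (0.04, 95% interval -0.30 to 0.38).

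Among regulators of proteolysis, Acp76A and Acp62F varied more between libraries than between genotypes. Acp76A, a serpin, was at 126, 170.0, 482, 199 and 318 CPM in controls 1 to 5 and at 220.3, 198, 107 and 330.3 CPM in mutants 1 to 4. Control 3 was the highest library and mutant 3 the lowest, and the groups overlapped. Its log2 fold change was -0.28 (SE 0.38), with a 95% interval from -1.10 to 0.54. It turned to 0.07 without control 3 and to 0.05 with the replicate block, which also lacks control 3. Acp62F, a protease inhibitor that is toxic to flies when expressed throughout the body, had 269 ± 105 and 245 ± 38.2 CPM (-0.14, 95% interval -0.65 to 0.38). Sfp24F, a predicted C-type lectin, had 45.2 ± 8.69 and 47.4 ± 2.69 CPM (0.07, 95% interval -0.22 to 0.35).

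The Mst57D genes and Sfp96F sit within 2579 bases on 3R (25829321 to 25831899, BDGP6). Mst57Db was at 698, 998, 1201, 952 and 939 CPM in controls 1 to 5 and at 1308, 863, 915 and 849 CPM in mutants 1 to 4. Mutant 1 was the highest library and control 1 the lowest, and the groups overlapped (log2 fold change 0.04, 95% interval -0.31 to 0.38). Mst57Da was at 683, 702, 886, 677 and 730 CPM in the controls against 939, 771, 771 and 766 CPM in the mutants, where control 3 kept the groups overlapping (0.14, 95% interval -0.07 to 0.36). Mst57Dc, another of these peptide genes, had a negative log2 fold change, with 246 ± 70.8 and 212 ± 12.9 CPM (-0.22, 95% interval -0.60 to 0.16). Sfp96F, which is 168 bases long, had 14.5 ± 4.20 and 16.6 ± 4.21 CPM.

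The tandem genes Acp53C14a, Acp53C14b, Acp53C14c and Acp53Ea, with Sfp53D beside them, fill 7201 bases of 2R (16744295 to 16751495). Acp53C14a was at 413, 565, 667, 539 and 525 CPM in controls 1 to 5 and at 668, 626, 616 and 633 CPM in mutants 1 to 4. All mutants exceeded 4 of the 5 controls, and control 3 lay among them. Its log2 fold change was 0.23 (SE 0.11, 95% interval -0.02 to 0.48, edgeR adjusted p = 0.369). Acp53C14b was at 484, 617, 728, 549 and 558 CPM in the controls and 726, 622, 564 and 583 CPM in the mutants (0.09, 95% interval -0.17 to 0.34). Acp53Ea was at 414, 552, 681, 539 and 522 CPM in the controls against 637, 575, 473 and 588 CPM in the mutants (0.07, 95% interval -0.21 to 0.35). In these related genes control 1 was always the lowest library. Acp53C14c, with 41.5 ± 14.6 and 43.0 ± 6.69 CPM, stood far below the other Acp53 genes, at 74.8 CPM per kb against 828 or more. All 5 log2 fold changes of this cluster were positive, from 0.05 to 0.23. Reads that fit several related genes would make the split of counts among them uncertain, and the share of such reads was not tested.

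Another cluster, of 6 genes in 33116 bases of 2L (3667977 to 3701092), holds Sfp24Ba, Sfp24Bb, Sfp24Bc, Sfp24Bd, Acp24A4 and Sfp24C1, several of which encode predicted Kunitz-type protease inhibitors. Summed over the cluster, controls averaged 405 ± 264 CPM and mutants 569 ± 194 CPM. Acp24A4 was at 51.8, 251, 52.6, 81.8 and 55.1 CPM in controls 1 to 5 and at 137, 257, 117 and 78.6 CPM in mutants 1 to 4. Sfp24Ba was at 21.5, 106, 18.6, 33.4 and 27.9 CPM in the controls and at 59.9, 95.3, 41.1 and 30.6 CPM in the mutants. For both genes control 2 and mutant 2 stood well above all other libraries, and mutant 1 came next. The log2 fold changes were 0.58 for Acp24A4 (95% interval -0.46 to 1.63) and 0.45 for Sfp24Ba (95% interval -0.60 to 1.503). Without control 2 they were 1.289 and 1.161 (edgeR adjusted p = 0.0553 and 0.0808), and without mutant 2 they were 0.17 and 0.08. Sfp24Bb was also highest in control 2 and mutant 2, with 155, 450.2, 129, 195 and 137 CPM in the controls and 276, 433, 291 and 219 CPM in the mutants, and mutant 3 came next. Its log2 fold change was 0.51 (SE 0.34, edgeR adjusted p = 0.513). Without control 2 it was 0.98 (edgeR adjusted p = 0.0281). Without control 2 and mutant 2 together, a fit added after the data were seen, it was 0.77 (edgeR adjusted p = 0.0438). Sfp24Bb was the 1 member called in each of these fits, which called 291 of 13213 and 138 of 13337 tested genes. Without mutant 2 alone its log2 fold change was 0.30. Sfp24Bd and Sfp24C1, of the same cluster, did not peak in these libraries, at 18.6 ± 4.18 and 22.2 ± 4.69 CPM and at 26.4 ± 5.15 and 29.1 ± 4.78 CPM.

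Sfp60F on 2R and Sfp87B on 3R were likewise highest in control 2 and mutant 2, followed by mutant 1. Sfp60F was at 253, 1134, 246, 362 and 299 CPM in controls 1 to 5 and at 541, 934, 491 and 309 CPM in mutants 1 to 4. Sfp87B was at 434, 1387, 539, 634 and 602 CPM in the controls and at 843, 1428, 693 and 591 CPM in the mutants. The log2 fold changes were 0.31 for both, with 95% intervals from -0.67 to 1.29 for Sfp60F and from -0.41 to 1.02 for Sfp87B. Without control 2 they were 0.97 for Sfp60F and 0.69 for Sfp87B (edgeR adjusted p = 0.0909 and 0.158), and without mutant 2 they turned to -0.04 and -0.02. In all, control 2 and mutant 2 were the highest pair of libraries for 6 members (12.5%), against 5.75% of all tested genes. These libraries carry the same replicate number in the sample sheet, and across the 48 members their deviations from their group means correlated at 0.909, a value over genes and not over samples. The other same-numbered pairs correlated at 0.126, 0.0937 and 0.742 over the members, and control 3 and mutant 4, whose numbers differ, at 0.812. Ebp, which encodes a secreted protein of the ejaculatory bulb and is no member, had 1879.9, 4595, 1580.3, 2014 and 1394 CPM in the controls and 3169, 4113, 1981 and 1348 CPM in the mutants. Like the 6 members, it was highest in control 2 and mutant 2. Other duct genes did not follow, since Dup99B was at 514 CPM in control 2 and 679 CPM in control 3. The part of bulb or duct RNA in these values was not tested.

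**Figure D3:**
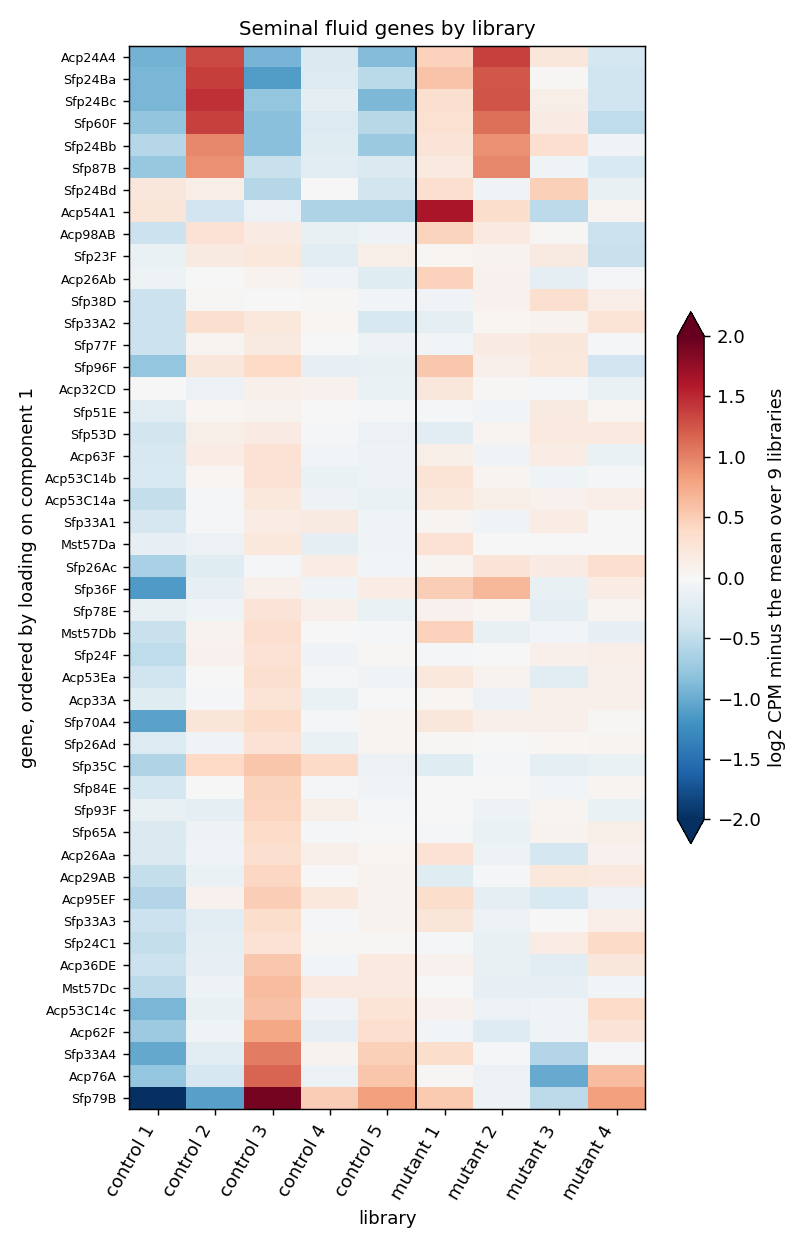
Log2 CPM of each seminal fluid gene in each library minus its mean over 9 libraries (red above, blue below, colours end at 2 on either side), with controls left of the line. Genes are ordered by their loading on the first principal component of these values. The upper genes are red in control 2 and mutant 2, and the lower ones run from blue in control 1 to red in control 3.

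A larger group of members followed another order. For 19 of the 48 (39.6%) control 3 was the highest and control 1 the lowest library, a pattern of 1.94% of all tested genes. Control 1 was the lowest library for 34 members and for 11.5% of all tested genes, and control 3 the highest for 24 members and for 22.4% of all tested genes. The widest range belonged to Sfp79B, with 233 exon bases, at 0.83, 2.86, 22.9, 8.53 and 10.7 CPM in controls 1 to 5 and at 8.76, 5.65, 4.20 and 10.8 CPM in mutants 1 to 4. All mutants lay inside the control range, which spanned 27.6-fold and rested on 15 counts in control 1 and 400 in control 3. Its log2 fold change was -0.32, with a 95% interval from -1.70 to 1.06. It turned to 0.36 without control 3 and to 0.55 with the replicate block, which also lacks control 3 (edgeR adjusted p = 0.861 and 0.613). Outside the members, msopa, an accessory gland gene of unknown function, was at 131, 247, 625, 377 and 368 CPM in the controls and 426, 302, 317 and 444 CPM in the mutants, and so was also lowest in control 1 and highest in control 3. The 15 testis markers summed to 5833 CPM in control 3, and to between 4273 and 4647 CPM in the other controls, with control 1 at 4632. The sum of 40 other seminal fluid genes was 17548 CPM in control 3 and 13314 CPM in control 1, but mutant 1 was the highest library at 17795 CPM and mutant 3 the lowest at 12376 CPM. The part of tissue content in these differences was not tested.

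The first principal component of the members' log2 CPM held 45.9% of their variance and the second 38.1%. On the first, control 2 scored -2.96 and mutant 2 -2.23, and control 3 scored 3.67. On the second, control 1 stood alone at -4.63, and all other libraries lay between -0.463 and 1.85. Neither component parted the genotypes. The median coefficient of variation among controls was 20.03% for the members, and 10.8% for the 10268 tested genes with a mean at or above that of the lowest member. The highest library was at least 3-fold above the lowest for 11 members, against 2.52% of those genes.

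The steadiest members stood in contrast. Acp32CD was at 155, 143, 167, 165 and 142 CPM in controls 1 to 5 and at 183, 158, 152 and 142 CPM in mutants 1 to 4, a 1.29-fold range. Sfp51E ranged 1.33-fold, with 87.2 ± 6.85 and 91.1 ± 6.69 CPM, and Sfp78E 1.35-fold, with 81.9 ± 10.5 and 81.7 ± 6.42 CPM. In all, 8 members stayed within 1.5-fold over the 9 libraries. Acp33A, among the 10 highest per kb, was at 263, 306, 376, 284 and 315 CPM in the controls and 322, 288, 335 and 334 CPM in the mutants. Its log2 fold change was 0.05, with a 95% interval from -0.17 to 0.27.

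**Figure D4:**
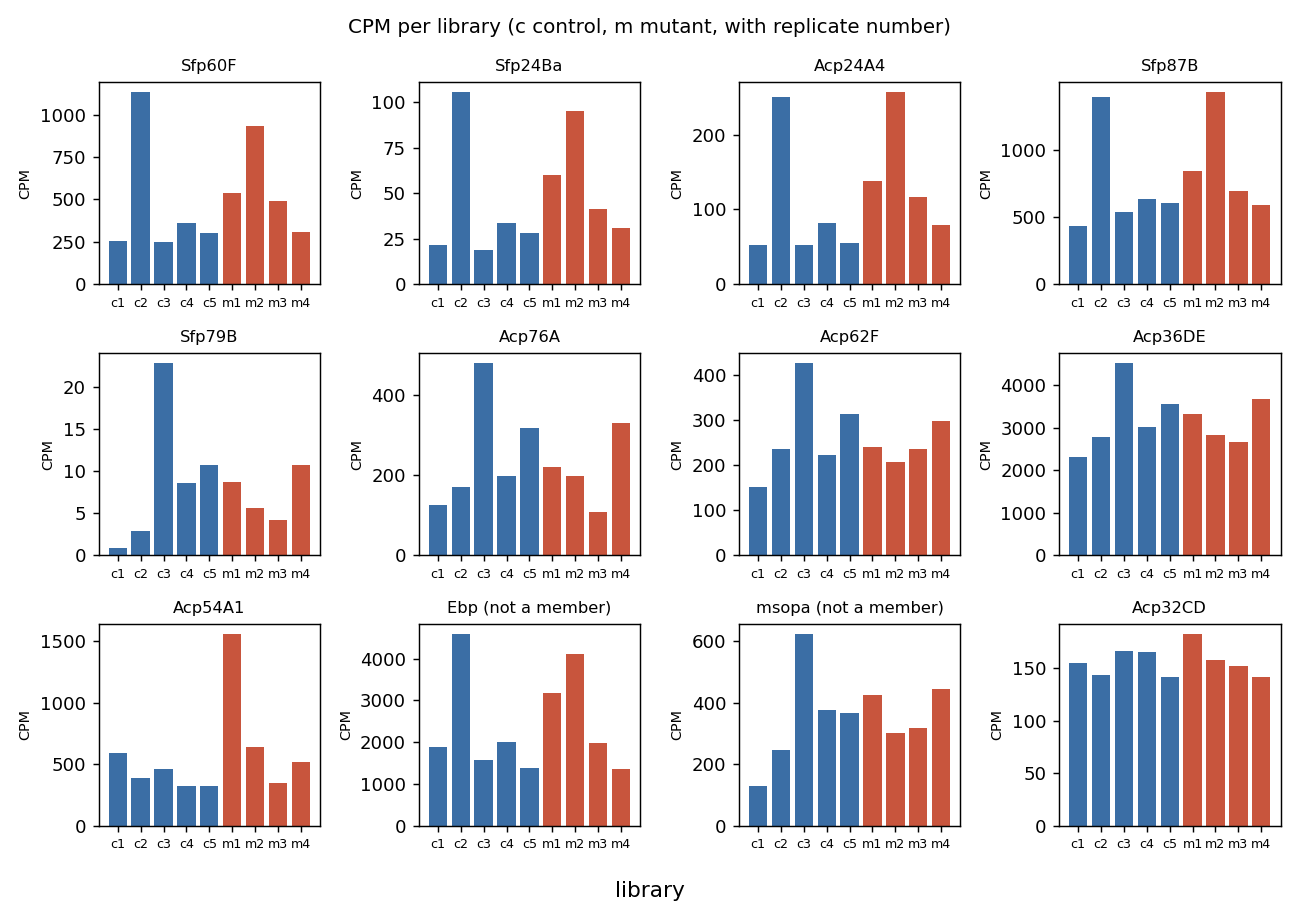
CPM in each library for 10 seminal fluid genes and 2 genes outside the set, Ebp and msopa (blue controls, red mutants, bars from 0). Sfp60F, Sfp24Ba, Acp24A4, Sfp87B and Ebp peak in control 2 and mutant 2, whereas Sfp79B, Acp76A, Acp62F, Acp36DE and msopa peak in control 3. Acp54A1 stands out in mutant 1, and Acp32CD differs little between libraries.

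Acp54A1, an accessory gland peptide gene of 306 bases on 2R (17133445 to 17133750, plus strand), had the largest log2 fold change of the members. It was at 595, 388, 463, 327 and 327 CPM in controls 1 to 5 and at 1563, 639, 350.2 and 521 CPM in mutants 1 to 4. Mutant 1 was more than any other library, mutants 3 and 4 lay within the control range, and the mutant of each pair of the sample sheet was the higher. The log2 fold change was 0.87 (SE 0.35, 95% interval 0.11 to 1.64, edgeR adjusted p = 0.272). Without mutant 1 it was 0.26 (edgeR adjusted p = 0.645). With the pairs as a block it was 0.72 (SE 0.16, adjusted p = 0.0359). DESeq2 gave an adjusted p of 0.409, and the authors' deposited table a log2 fold change of 0.58 (adjusted p = 0.370).

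Acp54A1 lies in a stretch of 2R that holds called genes of other kinds. Of 35 tested genes in a window of 100 kb to either side, Acp54A1 included, 4 were called, and it was not among them. Over all tested genes, 1.63% were called. Cda9, a predicted chitin deacetylase gene 3111 bases away, was higher in the mutants (log2 fold change 1.90, SE 0.28, edgeR adjusted p = 0.00335). Amy-d, an alpha-amylase gene 7076 bases away, was higher too (1.41, SE 0.19, adjusted p = 0.00195). The non-coding genes CR44389 and CR45323, 55046 and 55555 bases to the other side, were lower (-1.06 and -2.18, adjusted p = 0.000396 and 0.0394). With the replicate block Acp54A1 and these 4 genes were called. So were Amy-p, CG43103 and CR44391 (edgeR adjusted p = 0.0450, 0.0100 and 0.0112). Amy-d was at 407, 408, 304, 312 and 312 CPM in the controls and 1319, 987, 617 and 782 CPM in the mutants, so mutant 1 was also its highest library. Sequence variation between the stocks in this stretch and an effect of the E78A lesion cannot be told apart.

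**Figure D5:**
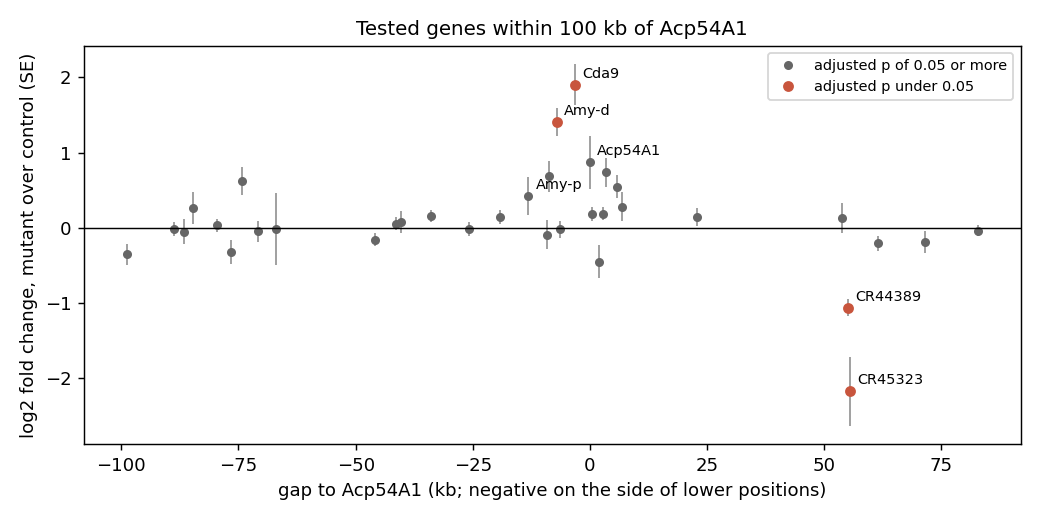
Log2 fold change, mutant over control, with its SE, of the 35 tested genes within 100 kb of Acp54A1, by the gap to that gene in kb. Red points have an adjusted p under 0.05. Cda9 and Amy-d are higher beside Acp54A1, and CR44389 and CR45323 lower at 55046 and 55555 bases.

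After Acp54A1, and apart from Acp53C14a, the smallest p-values of the members belonged to Sfp26Ac, Sfp36F, Sfp38D and Sfp35C, seminal fluid genes of 2L. Sfp26Ac was at 8.13, 10.8, 12.5, 14.1 and 12.2 CPM in controls 1 to 5 and at 13.1, 15.2, 14.2 and 16.0 CPM in mutants 1 to 4. Only control 4 reached into the mutant range, and the adjusted p was 0.282 (log2 fold change 0.34, SE 0.14, edgeR). Sfp36F was at 2.49, 4.83, 5.84, 5.13 and 6.002 CPM against 7.62, 8.62, 4.90 and 6.02 CPM, a log2 fold change of 0.48 (SE 0.24, edgeR adjusted p = 0.375). Sfp38D was at 17.8, 24.4, 23.8, 24.5 and 23.1 CPM against 22.8, 25.4, 30.1 and 26.3 CPM (0.20, SE 0.11, edgeR adjusted p = 0.432). Both genes had overlapping groups, with control 1 lowest. Sfp35C had the lowest log2 fold change, -0.33 (SE 0.19, edgeR adjusted p = 0.460), at 21.5, 43.2, 47.9, 42.7 and 30.1 CPM in the controls and 27.6, 32.1, 28.6 and 29.8 CPM in the mutants. Its controls lay on both sides of the mutants.

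Acp95EF, second in level per kb, was at 412, 657, 870.0, 715 and 649 CPM in the controls and at 791, 549.6, 505 and 571 CPM in the mutants (log2 fold change -0.13, 95% interval -0.54 to 0.28). All 243 of its exon bases lie opposite exons of Spase22-23, a signal peptidase gene at 105 ± 11.3 and 99.5 ± 8.64 CPM. Whether reads were counted by strand is not stated. Without strand, no exon read of Acp95EF could be told from one of Spase22-23. Yet Acp95EF held 412 CPM or more in every library, and Spase22-23 at most 119 CPM. How much of either count came from the other strand was not tested. Sfp78E and Sfp84E are the other 2 of 3 members whose exons overlap those of another gene. Sfp87B lies inside svp, a nuclear receptor gene on the same strand, with no shared exon base, and svp was at 80.2 ± 6.11 and 81.2 ± 7.18 CPM. The remaining members, not described one by one, had log2 fold changes between -0.26 for Sfp33A4 and 0.38 for Sfp24Bc, none of them called.

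Most of the genes were small, with Acp36DE an exception at 2923 exon bases, and their places in the genome were uneven. Their median exon length was 409.5 bases, against 1870.0 for the protein-coding genes tested, and the median coding length 277.5 against 1290.0 bases. A single exon was annotated for 17 of them. Of the 48, 23 (47.9%) lie on 2L, where 18.9% of tested protein-coding genes lie, and 0 lie on X, where 15.9% do. The other members are spread over 2R with 8, 3L with 8 and 3R with 9. Chaining neighbours at most 50 kb apart gave 5 clusters that hold 22 members. Beside the clusters already described, these were Acp26Aa, Acp26Ab, Sfp26Ac and Sfp26Ad on 2L (5884350 to 5943304), at a summed 887 ± 117 and 907 ± 119 CPM, and Sfp33A2, Sfp33A3 and Sfp33A4 on 2L (11837243 to 11840329), at 147 ± 32.3 and 154 ± 16.4 CPM.

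Calls among other genes of the male reproductive tract were read beside 1.63% of all tested genes, the share that edgeR called. Of 39 tested seminal fluid genes with other names, 1 was lower and 0 higher, with 21 positive log2 fold changes and a median of 0.0158. In the mutants CG6690 averaged 38.6 ± 2.88 CPM against 51.5 ± 5.09 CPM in controls, and so fell (log2 fold change -0.42, SE 0.09, edgeR adjusted p = 0.0394). The highest of that list were the lipase family genes CG17097 and CG31872 and the serpin gene Spn77Bc, at 3915 ± 270 and 3832 ± 789 CPM, 1875 ± 303 and 1862 ± 301 CPM, and 1155 ± 224 and 1098 ± 225 CPM. With the replicate block 3 of the 39 were called, beside 3.77% of all genes: CG6690 as lower, and CG18284 (log2 fold change 0.40, edgeR adjusted p = 0.00673) and Spn75F (0.25, adjusted p = 0.0290) as higher. Among 10 tested genes of the sex peptide and its network, 0 were called, by edgeR with or without the block, and all 10 log2 fold changes were positive, with a median of 0.0851. The smallest unadjusted p among them was 0.0324, for hdly. SP itself was at 141 ± 24.3 and 142 ± 24.5 CPM. Of 5 tested duct and bulb genes 0 were called and 1 had a positive log2 fold change, and Est-6, the duct esterase, was at 1445 ± 118 and 1277 ± 423 CPM. Of 15 testis markers 1 was called, the sperm tail gene Mst84Db, which rose from 106 ± 14.2 to 149 ± 12.4 CPM (0.49, SE 0.10, edgeR adjusted p = 0.0275). Only 2 of the 15 log2 fold changes were positive, and the median of all 15 was -0.139. With the replicate block 2 of the 15 were called, beside 3.77% of all genes. Mst84Db was higher and the sperm chromatin gene ProtB lower (log2 fold change -0.33, edgeR adjusted p = 0.0110).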

How the data were processed

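RNA was sequenced in paired ends of 51 cycles from a kit that keeps strand, per the labels' protocols. Tools listed without roles in the submitters' processing notes are featureCounts 1.6.3, STAR 2.6.1b, cutadapt 1.16 and DESeq2 1.20.0 and 1.22.2, with the builds BDGP6 and dm6. The deposited raw counts per gene and library are whole numbers, and they were used as deposited. The authors' deposited comparison gives log2 fold changes and p-values in columns named as DESeq2 names them, per the file headers. It does not state whether shrinkage was applied, and it was only set beside the new fit. The other normalised tables were left unused.

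Libraries were grouped by title and numbered in accession order. The test was the quasi-likelihood test of edgeR 4.0.16 (R 4.3.3) after filterByExpr, whose minimum count was 10, and TMM scaling. Calls use a Benjamini-Hochberg adjusted p under 0.05 over all genes tested. SE is the log2 fold change over the square root of F, and 95% intervals use the moderated degrees of freedom, 12.1, one gene at a time. CPM uses TMM-scaled library sizes. Log2 ratios within pairs add 0.5 CPM. Exon lengths came from the Ensembl BDGP6.54 annotation, whose gene coordinates equalled those of the authors' sheet for 47 of 48 genes, all but Acp36DE. Very short transcripts can be lost in size selection, which lowers their level per kb. The script was tested on simulated data.

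The sample sheet gives replicate numbers. Deviations from group means of same-numbered libraries correlated at 0.244, 0.258, 0.249 and 0.334 over tested genes, against at most 0.048 for other numbers, so the numbers were taken to pair 4 libraries of each genotype, with control 3 unpaired.

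Members, gene lists and alternatives were chosen with earlier results of these data known. Genes given library by library are the 10 highest per kb and the 6 members with the smallest p. The members with the largest and smallest log2 fold change, and awd as the most abundant gene of its list, were given likewise. Acp76A, Acp24A4, Sfp24Ba, Sfp24Bb, Sfp79B, Acp32CD, Ebp, msopa, Dup99B in 2 libraries and the neighbours of Acp54A1 were added once their values were known. The alternatives tried were upper-quartile and RLE factors, DESeq2 1.42.0, scaling without the members or to the other seminal fluid genes, no filter or 1 CPM in 4 libraries, each library left out, the replicate block, the 5 libraries whose labels agree, grouping by tag, and other lengths. Leaving out control 2 with mutant 2, or control 1 with control 3, was added after the data were seen.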

Additional observations from a re-analysis of the deposited data

Results flagged for a closer look

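Within the 96 groups of libraries examined (48 genes in 2 genotypes), 10 held a library whose gap to its nearest neighbour was large against the whole range of its group. Chance flags about 1 in 20 such groups, and genes of the same library are not independent. In control 2, 6 genes stood high: Acp24A4 at 251 CPM, Sfp24Ba at 106, Sfp24Bb at 450.2, Sfp24Bc at 18.1, Sfp60F at 1134 and Sfp87B at 1387 CPM. Their next highest controls were at 81.8, 33.4, 195, 5.79, 362 and 634 CPM. In mutant 1, Mst57Da stood high at 939 CPM and Mst57Db at 1308 CPM, where the next mutants were at 771 and 915 CPM. Mst57Da was also high in control 3, at 886 CPM against 730 CPM in the next control. Sfp38D was low in control 1, at 17.8 CPM against 23.1 CPM in the next control.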

How the results depend on the processing

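The count of 0 members higher became 1 without control 2 (Sfp24Bb), 1 with the replicate block of the sample sheet (Acp54A1) and 1 without control 2 and mutant 2 (Sfp24Bb). Over the fits that leave out 1 library, it ran from 0 to 1. It stayed at 0 in the other alternatives, and the count of members lower was 0 in all 21. The cause was not tested. The replicate block changed no other call of a member. The median log2 fold change of members, 0.0664, ran from -0.00692 without control 1 to 0.159 with the replicate block. That block also lacks control 3, and without control 3 alone the median was 0.154. The log2 ratio of summed member CPM, 0.0933, ran from 0.00715 without control 1 to 0.183 with the 5 libraries whose labels agree. The sign of the log2 fold change stayed the same in all alternatives for 13 members and changed in at least 1 for 35, none of them called in any fit with the other sign. Over all genes, calls numbered 217, against 513 with the block, 492 with DESeq2, 21 with the 5 libraries and 0 by genotype tag. Without control 2 they numbered 291, and without control 2 and mutant 2 together 138. Counting by coding length or gene span moved the median level from 174 to 218 and 156 CPM per kb, and 9 or 10 of the 10 highest genes per kb remained among them. The lowest count of a member in a library was 15, for Sfp79B, and such low counts carry more counting noise than those of abundant members.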

Other observations

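Genes chosen as regulators of the accessory gland were examined as a further list. In RNA of whole flies their CPM cannot be assigned to the gland. Of 8 tested genes 0 were called by edgeR, also with the replicate block, and 6 had a positive log2 fold change. The shares called over all tested genes were 1.63%, and 3.77% with the block. The smallest unadjusted p was 0.0465, for dve. The most abundant, awd, a nucleoside diphosphate kinase, was at 300.5, 416, 264, 260.2 and 255 CPM in controls 1 to 5 and at 359, 396, 279.7 and 249.5 CPM in mutants 1 to 4. It was highest in control 2 and mutant 2, with mutant 1 next, which is the order of Sfp60F and Ebp over a narrower range. Control 2 and mutant 2 were the highest pair for 5.75% of all tested genes. Dad, an inhibitor of BMP signalling, averaged 51.4 ± 4.61 CPM in control and 56.0 ± 5.87 CPM in mutant libraries. EcR, the ecdysone receptor, was at 37.6 ± 3.66 and 42.9 ± 5.04 CPM. Neither was called by edgeR (adjusted p = 0.569 and 0.404).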
